A study of Mus musculus with 3 samples.

Results

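Genes of glucose uptake and glycolysis were followed through 3 cultures of immortalized mouse lymphatic endothelial cells. The gene set holds 10 genes: the transporter Slc2a1, the hexokinases Hk1 and Hk2, the phosphofructokinase genes Pfkp, Pfkl and Pfkfb3, the lower-pathway genes Pgk1, Pgam1 and Eno1, and the lactate dehydrogenase gene Ldha. Every probe set that the platform annotation gives to a member was read. That rule gave 9 of the 10 genes a value, out of 18193 genes in all, through 19 probe sets. No probe set was assigned to Eno1, which is not analysed here. A further probe set is annotated to Hk1 together with Rpl17 and others, 6 genes in all, and was not used.

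The cells (imLECs) were sorted by flow cytometry from normal skin of H-2Kb-tsA58 mice, known as ImmortoMice, whose cells carry a temperature-sensitive large T antigen that interferon-gamma can induce. They were grown at 33 °C with interferon-gamma on collagen and fibronectin. The medium mixed low glucose DMEM with F12, serum, endothelial mitogen and heparin. All cultures then spent 3 days at 37 °C without interferon-gamma so that the T antigen would be degraded. One array was made from each culture, at passages 13, 14 and 18, and no unimmortalized or untreated cells are among the samples. Each passage is thus 1 culture without a replicate, differences between passages carry no test, and culture and passage cannot be told apart. Whether the cultures trace to one sorted population or several animals is not given in the sources used here.

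Glycolysis splits glucose into pyruvate in the cytosol. Slc2a1 brings glucose in, hexokinase traps it as glucose phosphate, phosphofructokinase makes the committed step, and the lower enzymes harvest ATP before lactate dehydrogenase turns pyruvate into lactate. Endothelial cells are known to make most of their ATP this way even with oxygen present. Pfkfb3, whose product activates phosphofructokinase, is known for its role in vessel sprouting. In lymphatic endothelium, fibroblast growth factor signalling through Myc is known to sustain Hk2 expression, and hypoxia-inducible factor (HIF) is a textbook inducer of many of these genes.

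The start-site windows of 4 members are shown because these genes carry the contrast described next. Hk2 read highest at passage 18, whereas Pfkl, Pgk1 and Ldha read lowest there. Each window runs from 250 bases before to 50 bases after the start of a transcript, written 5′ to 3′ on the gene's strand, from RefSeq on GRCm38.p6. Capitals mark every ACGTG or GCGTG on either strand, the letters at the core of HIF-binding sites. An ACGTG preceded by C is at the same time CACGTG, the E-box that Myc is known to bind. For Ldha, which has another start, the upstream one is printed.
Hk2 (chr6:82774405-82774704, minus strand): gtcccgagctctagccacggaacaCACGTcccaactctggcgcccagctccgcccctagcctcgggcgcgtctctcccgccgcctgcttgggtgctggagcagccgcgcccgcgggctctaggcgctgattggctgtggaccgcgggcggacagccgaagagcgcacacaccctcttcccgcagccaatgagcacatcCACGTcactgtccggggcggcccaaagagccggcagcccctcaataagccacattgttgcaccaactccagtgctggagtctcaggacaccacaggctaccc
Pfkl (chr10:78009758-78010057, minus strand): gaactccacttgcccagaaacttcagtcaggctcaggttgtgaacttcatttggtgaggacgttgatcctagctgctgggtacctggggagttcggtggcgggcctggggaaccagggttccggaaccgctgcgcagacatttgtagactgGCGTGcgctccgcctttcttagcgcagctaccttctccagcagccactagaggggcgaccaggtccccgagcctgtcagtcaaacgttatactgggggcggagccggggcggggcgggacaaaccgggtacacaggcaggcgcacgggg
Pgk1 (chrX:106186850-106187149, plus strand): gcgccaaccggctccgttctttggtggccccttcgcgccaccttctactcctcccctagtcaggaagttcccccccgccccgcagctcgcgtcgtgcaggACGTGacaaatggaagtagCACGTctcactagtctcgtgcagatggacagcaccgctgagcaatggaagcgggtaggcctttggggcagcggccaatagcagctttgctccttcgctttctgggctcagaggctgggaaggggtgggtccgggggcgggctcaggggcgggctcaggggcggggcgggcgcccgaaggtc
Ldha (chr7:46845554-46845853, plus strand): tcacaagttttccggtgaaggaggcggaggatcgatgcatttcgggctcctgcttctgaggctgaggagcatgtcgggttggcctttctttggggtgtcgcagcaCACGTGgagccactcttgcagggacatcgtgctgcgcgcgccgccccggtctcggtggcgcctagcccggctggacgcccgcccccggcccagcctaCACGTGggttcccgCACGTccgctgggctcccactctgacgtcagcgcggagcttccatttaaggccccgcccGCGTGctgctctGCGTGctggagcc

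The Hk2 window holds ACGTG at 226 and 52 bases upstream of the start and no GCGTG. In Pgk1 the same letters lie 150 and 131 bases upstream, and in Pfkl a single GCGTG lies 99 bases upstream. The upstream Ldha window holds 2 E-boxes, 1 further ACGTG 34 bases upstream and 2 GCGTG after the start. RefSeq windows were found for all 10 genes, 15 windows in all. ACGTG or GCGTG stood in 14 of the 15, against 43.8% of all 32851 windows of the same length. ACGTG stood in 8 of the 15 and in 19.6% of all windows, and CACGTG in 2 of the 15 and in 7.15%. GCGTG stood in 11 of the 15 and in 32.4%. Some genes gave more than 1 window, and 2 of the 3 Eno1 windows overlap. The 15 windows are thus not separate items, and enrichment was not tested. A match is a description of letters, and Hk2 and the genes that ran the other way both hold them.

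A probe set was counted as detected where its intensity exceeded, on all 3 arrays, a floor set by genes restricted to other tissues. This floor stood at 71.6 intensity units for passage 13, 51.8 for passage 14 and 52.8 for passage 18. All 9 measured members were detected, against 47.3% of all 18193 genes. Of their 19 probe sets, 16 were above the floor on every array. The exceptions were the dimmer probe set of Pfkfb3, below the floor at passage 18 alone, and 1 probe set each of Pfkp and Pfkl, below it on every array. Each gene is represented below by its brightest probe set. Probe sets differ in how strongly they bind, so levels of different genes are not compared.

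The arrays themselves were on a common scale, with median intensities between 25.7 and 26.3 and between 8850 and 9486 genes above the floor. Markers shared by all endothelium were detected in 12 of 12 cases and lymphatic markers in 7 of 11. The lymphatic receptor gene Flt4 read 2039, 1869 and 920 at passages 13, 14 and 18, Pdpn (podoplanin) 4615, 1933 and 3715, and Lyve1 1375, 2929 and 163. Of the other defining genes, Prox1 was above the floor at passage 13 only, and Itga9, Mmrn1 and Reln on no array. Of markers of other cell types, 2 of 8 leukocyte, 1 of 8 keratinocyte, 5 of 9 fibroblast, 3 of 8 mural and 0 of 2 erythroid genes were detected. The pan-leukocyte gene Ptprc and the fibroblast receptor Pdgfra were not above the floor on any array, but other genes of both lists were on all 3. The leukocyte genes Cd53 and Cd68 read 244, 121 and 64.6, and 127, 244 and 58.15, at passages 13, 14 and 18. The detected fibroblast genes were Col1a1, Col3a1, Thy1, Fbln1 and Mmp2. Whether cells of other types were present was not tested. The passage 18 array stood apart in its transcript-end controls, which are described with the results they touch.

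Most of the pathway shared a pattern: slightly higher at passage 14, lowest at passage 18. Of the 9 genes, 7 (Slc2a1, Hk1, Pfkp, Pfkl, Pfkfb3, Pgk1 and Ldha) ran in the order passage 14, 13, 18 from highest to lowest, an order found in 25.8% of all detected genes. Passage 14 was the highest culture in 36.1% of detected genes and passage 18 the lowest in 38.7%. Passages 14 and 13 were close for several of them: with the median of each gene's probe sets, passage 14 minus 13 was -0.12 for Hk1 and -0.02 for Pgk1, and with median centring it was -0.0069 for Hk1. Hk2 and Pgam1 did not run in that order, and both read highest at passage 18. The members' median log2 difference was 0.08 for passage 14 minus 13, with 8 of 9 higher at passage 14 (47.3% of all detected genes were). It was -0.47 for passage 18 minus 13, with 7 of 9 lower at passage 18 and 2 higher (52.1% and 47.4% of all detected genes), and -0.50 for passage 18 minus 14, with 7 of 9 lower and 2 higher (48.9% and 50.8%). Over all detected genes the 3 medians were -0.02, -0.02 and 0.01. Differences of at least 2-fold were found for 1 member in 1 comparison, Hk2 at passage 18 over 13, where 1.88% of detected genes were that much higher and 2.05% that much lower. With 16 added to every intensity before the log, that Hk2 difference was 0.96 and 0 members passed 2-fold. Among the 16 member probe sets above the floor, 13 were lowest at passage 18 and 12 highest at passage 14. Between passages 14 and 13, 1.77% of detected genes were at least 2-fold higher and 3.07% at least 2-fold lower, and no member was. Between passages 18 and 14 those shares were 6.46% and 5.18%, again without a member.

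**Figure D1:**
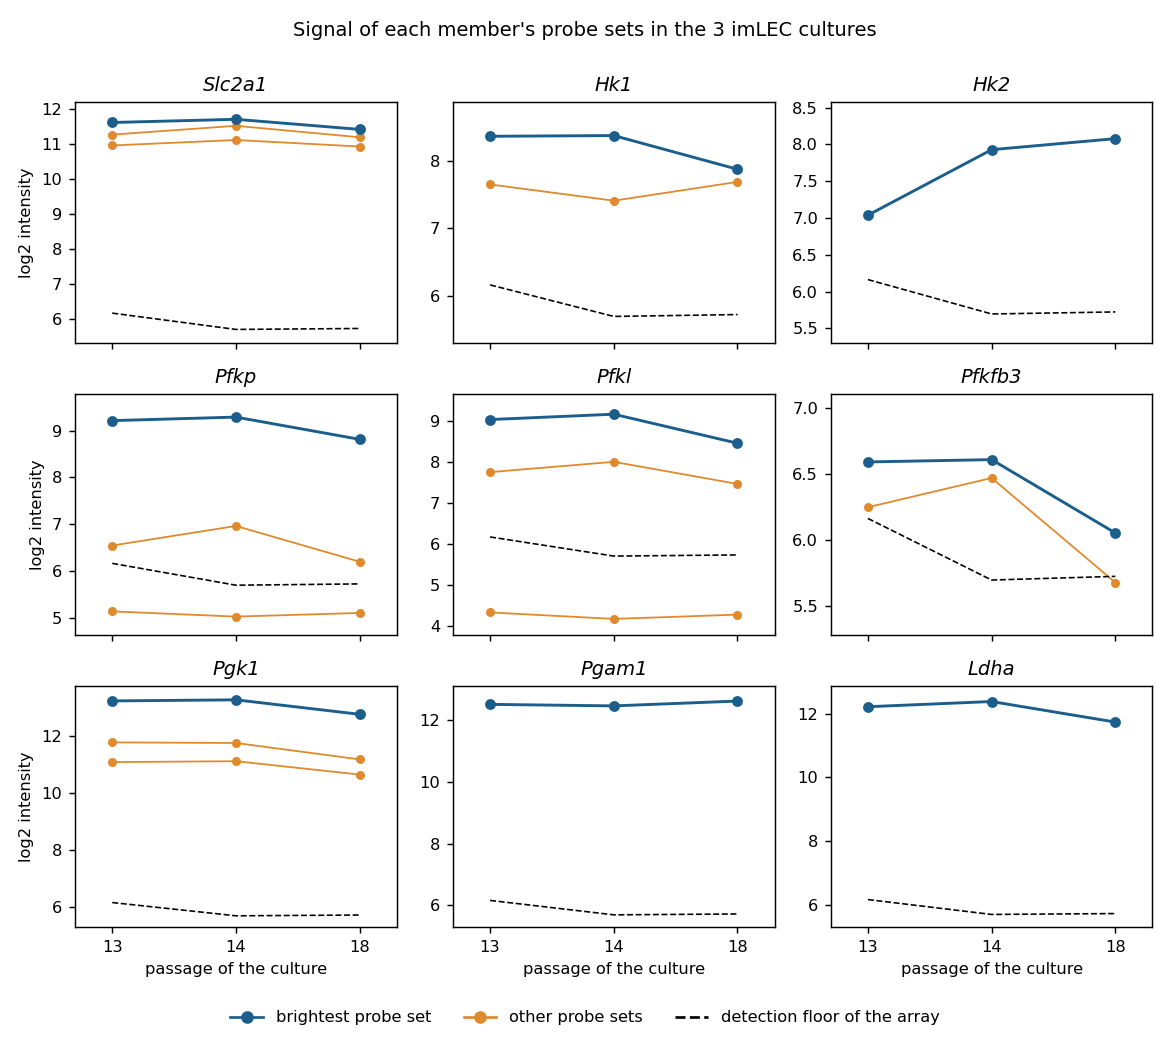
Log2 intensity of every used probe set of the 9 measured members (vertical axis, a separate scale for each gene) in the cultures of passages 13, 14 and 18 (evenly spaced), with the brightest probe set in blue, others in orange and the detection floor of each array dashed. Most lines are lowest at passage 18, Hk2 is higher at passages 14 and 18 than at 13, and Pgam1 stays nearly level; each point is 1 culture.

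The Slc2a1 transcript varied little over the cultures. Slc2a1, which encodes the transporter GLUT1, read 3144, 3350 and 2742 intensity units at passages 13, 14 and 18. Its other probe sets read 2471, 2944 and 2346, and 1993, 2222 and 1952. All 3 probe sets placed passage 14 highest and passage 18 lowest. The representative lay at log2 11.58 ± 0.15 (SD, n = 3), and passage 14 exceeded passage 13 by 1.07-fold while passage 18 was 1.15-fold below it. Its range over the cultures, 0.29 log2 units, was wider than that of 28.1% of detected genes, whose median range was 0.45.

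The hexokinases ran apart. Hk2, the inducible enzyme that is known to bind mitochondria, read 131, 243 and 270 at passages 13, 14 and 18. The passage 13 culture was the low one, and passages 14 and 18 lay close together. Over the passage 13 reading, Hk2 was 1.85-fold higher at passage 14 and 2.06-fold higher at passage 18, at log2 7.68 ± 0.56 (SD, n = 3). It had the widest range of the members, wider than that of 87.7% of detected genes. It is read by 1 probe set, so no second reading is at hand. Hk1, the constitutive hexokinase, read 330, 332 and 235 with its brighter probe set, which was 1.40-fold lower at passage 18 than at 13. Its dimmer probe set read 201, 170 and 206, lowest at passage 14 and highest at passage 18, so the 2 Hk1 probe sets disagreed in direction.

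The 3 members of the phosphofructokinase step were lowest at passage 18, unlike the muscle-type subunit gene Pfkm, which is no member and read 572, 458 and 697 at passages 13, 14 and 18. Pfkl, the liver-type subunit, read 522, 572 and 350 at passages 13, 14 and 18, and 215, 255 and 176 with its other detected probe set. The passage 18 reading was 1.49-fold below that of passage 13 and 1.63-fold below that of passage 14, the widest gap between passages 18 and 14 among the representative probe sets. Pfkp, the platelet-type subunit, read 594, 626 and 450, and 93.3, 125 and 73.4 with its other detected probe set. Both placed passage 14 highest and passage 18 lowest. Pfkfb3, which makes the sugar bisphosphate that switches phosphofructokinase on, read 96.4, 97.6 and 66.4. It was 1.45-fold lower at passage 18 than at 13. Its second probe set read 76.0, 88.6 and 51.1, the last below the floor of 52.8, and Pfkfb3 was the member nearest the floor.

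In the lower pathway Pgk1 and Pgam1 parted. Pgk1, whose enzyme forms the first ATP of the pathway, read 9746, 10010 and 7034 at passages 13, 14 and 18. Its other probe sets read 3547, 3496 and 2344, and 2195, 2243 and 1619. Passage 18 was the low culture in all 3, by 1.39-fold, 1.51-fold and 1.36-fold against passage 13, while passages 13 and 14 were nearly equal. Pgam1, the phosphoglycerate mutase of most tissues, read 5836, 5641 and 6289, highest at passage 18 by 1.08-fold over passage 13. Its SD of 0.08 log2 units (n = 3) was the smallest of the members, and 10.4% of detected genes had a narrower range. Ldha, which makes lactate, read 4762, 5331 and 3408. The passage 18 culture was again the low one, 1.40-fold below passage 13 and 1.56-fold below passage 14. Like Hk2, Pgam1 and Ldha are each read by 1 probe set, so neither has a second reading.

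**Figure D2:**
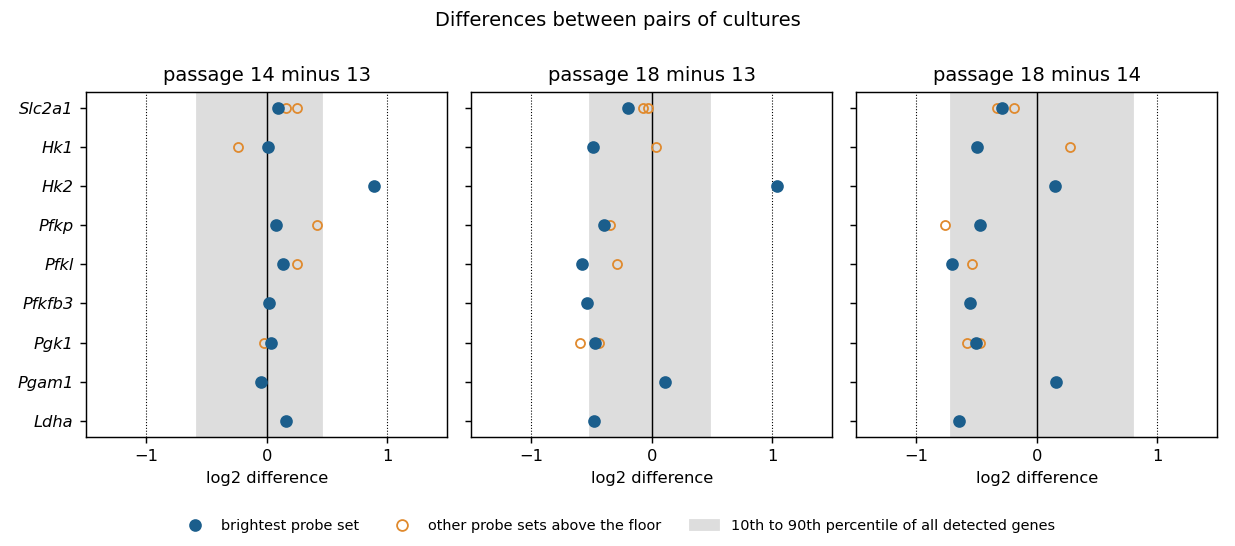
Log2 difference between pairs of cultures (horizontal axis) for each member gene (vertical axis), with filled points for the brightest probe set, open points for other probe sets above the floor and grey bands from the 10th to the 90th percentile of all detected genes. Hk2 lies outside the band for passage 14 minus 13 and for passage 18 minus 13, and Pfkl and Pfkfb3 lie just below it for passage 18 minus 13; dotted lines mark 2-fold.

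Transcript-end controls on the same arrays moved with this pattern. The Gapdh controls target the 3′ end, the middle and the 5′ end of the transcript of glyceraldehyde phosphate dehydrogenase, itself a glycolytic enzyme. The 3′ control read 11740, 11260 and 11500 at passages 13, 14 and 18 and varied little. The middle control read 4424, 5006 and 2703, and the 5′ control 1367, 1585 and 594, both in the order of the 7 members. The 3′ to 5′ ratio was 8.59, 7.10 and 19.4, and that of Actb was 1.18, 1.20 and 1.42. Which part of its transcript each member's probe set reads is not given in the sources used here, and the part of whatever moved these controls in the members' lower readings at passage 18 was not tested. Hk2 and Pgam1 were not lower on that array, and the same influence on their readings was not tested either. With probe positions unknown, these genes say nothing about such an influence on the other 7 members.

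**Figure D3:**
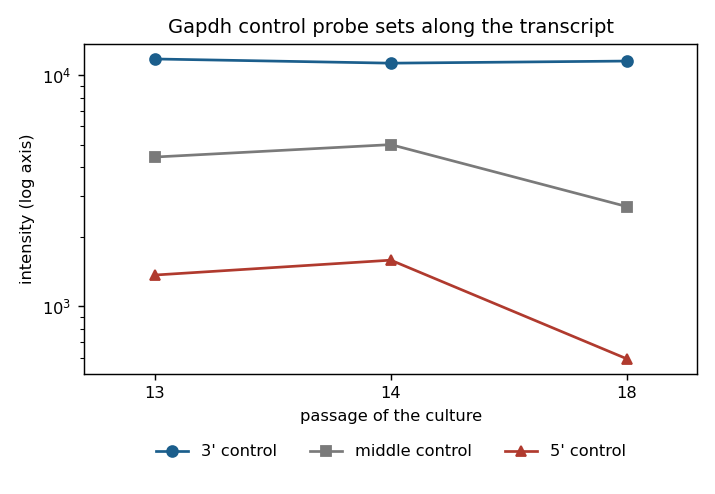
Intensity (vertical axis, log scale) of the Gapdh control probe sets for the 3′ end, the middle and the 5′ end of the transcript in the cultures of passages 13, 14 and 18. The 3′ control stays between 11260 and 11740, whereas the 5′ control reads 594 at passage 18 against 1367 at passage 13 and 1585 at passage 14.

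Cell cycle and cell type marker transcripts also read differently between the cultures. Each of the 11 detected cell cycle genes exceeded its passage 13 reading in the passage 14 culture, 7 of them by at least 2-fold (median 1.25 on the log2 scale). In the passage 18 culture 10 of the 11 were below their passage 13 reading (median -0.48). Ccnb2, a mitotic cyclin, read 320, 1085 and 177, and the mitotic checkpoint kinase Bub1 134, 319 and 68.8. Pcna, the replication clamp, read 4221, 5116 and 3414, and Rrm2, a ribonucleotide reductase subunit, 3749, 3882 and 3595. The summed intensity of the 15 measured cell cycle genes was 14190, 20234 and 12386 at passages 13, 14 and 18. All 12 pan-endothelial markers were lower at passage 18 than at 13 (median -0.76), and their summed intensity was 20428, 20263 and 13554. Leukocyte markers summed to 541, 506 and 247, and the 2 detected genes were lower at passage 18 than at 13. Fibroblast markers summed to 3880, 2475 and 5553, with 3 of the 5 detected genes higher at passage 18 than at 13 and 2 lower. Col1a1, a collagen chain gene, read 263, 92.8 and 1228, whereas Thy1 read 2496, 1414 and 1723. Mural markers summed to 6195, 1095 and 7375, and the contractile genes Acta2 and Tagln ran opposite ways at passage 18, with 1467, 308 and 5289 for Acta2 and 4535, 619 and 1756 for Tagln. In these whole-culture samples fewer cells of a type and less RNA per cell cannot be told apart, and the part of any of these in the members' values was not tested.

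Across all 9274 genes bright enough to test, limma's trend with passage number called 0 genes after Benjamini-Hochberg adjustment, 0% of those tested, and therefore 0 of 9 members. Without adjustment 316 genes (3.41%) passed 0.05, including 1 member, Pgk1. Its slope was -0.10 ± 0.03 log2 units per passage (SE), with an adjusted p of 0.892 by limma. The members' median slope was -0.10, and it turned to 0.08 without the passage 18 culture. The fit rests on 1 residual degree of freedom per gene. In simulated data of this size it called 0% of genes given a slope of 0.6, so the lack of calls does not show that members were unchanged.

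The other glycolytic enzymes, taken from a list that includes isoforms of other tissues, gave 7 detected genes of 15 measured. Of the 7, 4 were higher at passage 14 than at 13 and 5 were lower at passage 18 than at 13, with medians of 0.19 and -0.20. Aldoa, the aldolase of most tissues, read 4359, 5032 and 3035, and all 5 of its probe sets were lower at passage 18 than at 13. Pkm, the pyruvate kinase of most tissues, read 3958, 4800 and 2947, 1.34-fold lower at passage 18 than at 13. Both ran in the order of the 7 members. Eno3, the muscle enolase, read 97.8, 163 and 92.2. The enzymes not above the floor on any array numbered 8, among them Hk3, Aldoc, Pgam2 and Pklr.

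Ldhb, the other main lactate dehydrogenase subunit gene, ran against Ldha. It read 1959, 378 and 2458 at passages 13, 14 and 18, so that passage 14 was 5.18-fold lower than passage 13 and passage 18 was 6.50-fold higher than passage 14. All 4 Ldhb probe sets gave this order. The pair thus opposed each other at passage 14, where Ldha was at its highest. Among lactate carriers, Slc16a1 read 253, 626 and 295, 2.47-fold higher at passage 14 than at 13. Slc16a3, which exports lactate from glycolytic cells, read 117, 70.2 and 57.0, and Bsg, the chaperone of both carriers, read 3236, 3028 and 3202.

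Of the 10 other transporter genes measured, 3 were detected and 7 were not above the floor on any array, including the neuronal transporter Slc2a3 and the insulin-responsive Slc2a4. Slc2a9, better known as a urate carrier, read 2147, 1384 and 3003, and Slc2a8 read 121, 88.9 and 141. Slc2a10 read 227, 147 and 171. All 3 were lower at passage 14 than at 13, the opposite of Slc2a1. Of the genes that share the regulatory step with Pfkfb3, Pfkfb2 read 105, 66.6 and 99.7 and Tigar, a phosphatase that lowers the same activator, read 284, 239 and 288. The other 2 Tigar probe sets read 151, 154 and 96.8, and 92.8, 78.2 and 68.4. Both were lowest at passage 18, so the Tigar probe sets disagreed.

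Of the 12 genes listed for pyruvate's mitochondrial branch, 11 were measured, and all 11 were detected. Pdk1 and Pdk4, kinases that shut off pyruvate dehydrogenase, ran opposite ways at passage 14 only with the representative probe set of Pdk1. Pdk4 read 886, 346 and 1029, 2.56-fold lower at passage 14 than at 13. Pdk1 read 208, 277 and 125, but another detected probe set gave 247, 175 and 88.2, so its probe sets agreed only on the low value at passage 18. The subunit genes Pdhb and Dld read 741, 976 and 758, and 795, 996 and 696.

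**Figure D4:**
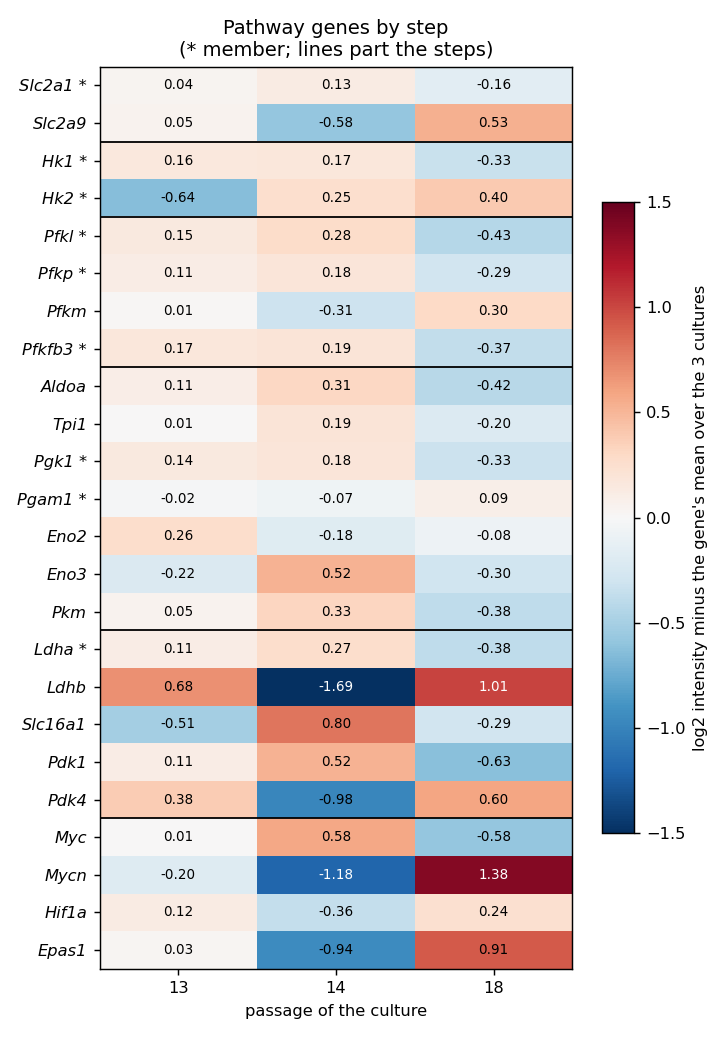
Log2 intensity minus the gene's own mean over the 3 cultures, printed and coloured (colours end at 1.5) for members (asterisk) and other pathway genes (rows, grouped by step from transport at the top to transcription factors at the bottom) at passages 13, 14 and 18 (columns). Most upper and lower pathway members are negative at passage 18, whereas Hk2, Pgam1, Pfkm, Ldhb and Slc2a9 are among those positive there; Ldhb is lowest at passage 14.

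Side branches of the pathway were measured too. All 7 pentose phosphate genes measured were detected, 4 of them lower at passage 14 than at 13 (median -0.13). Tkt, the transketolase gene, read 4306, 4714 and 4477, and Taldo1, the transaldolase gene, 561, 668 and 294. H6pd read 565, 298 and 475, and Pgd 2380, 1711 and 2346. In the serine branch all 5 genes measured were detected, and passage 14 exceeded passage 13 in every one (median 0.55). Psat1 read 4558, 6014 and 3522, Phgdh 1679, 2460 and 2309, Shmt1 326, 546 and 298, and Shmt2 468, 851 and 608.

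Of the glycogen and hexosamine genes 7 of 10 were detected. Gfpt2, a rate-setting enzyme of hexosamine synthesis, read 938, 1015 and 254, a 3.70-fold lower value in the passage 18 culture than in that of passage 13. Pygb, a glycogen phosphorylase, read 839, 772 and 806, and Pgm2 read 574, 645 and 375. Of gluconeogenic genes 3 of 7 were detected, and Fbp1 and Pck1, which carry that pathway in liver and kidney, were not above the floor on any array. Pck2 read 482, 532 and 416 and G6pc3 162, 118 and 99.5. Pcx, pyruvate carboxylase, read 113, 64.8 and 226, from the only detected one of its 5 probe sets.

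Transcriptional regulators of the pathway did not share one pattern. Myc, which induces glycolytic genes, read 924, 1370 and 614, highest at passage 14 and lowest at passage 18 like the 7 members and unlike Hk2. The fibroblast growth factor receptor gene Fgfr1, added as an example after its values were seen, read 188, 223 and 254. These are from the brightest of its 3 probe sets, and the others are not given here. That is the order of Hk2, which 11.3% of detected genes shared. The part of Myc or Fgfr1 in the members' values was not tested. Mycn read 167, 84.2 and 499, from the only detected one of its 3 probe sets. Foxo1, known to restrain endothelial metabolism, read 808, 846 and 1275 with its brightest probe set. Its other detected probe sets read 353, 369 and 421, and 232.9, 295.2 and 254.5. The last was highest at passage 14, so the Foxo1 probe sets disagreed. All 8 hypoxia regulators measured were detected. Hif1a read 1539, 1102 and 1668, Arnt, its partner, 1073, 768 and 1224, and Epas1 (HIF-2 alpha) 979, 500 and 1810, each lowest at passage 14 and highest at passage 18. A second bright Hif1a probe set read 988, 923 and 804, lowest at passage 18, so the Hif1a probe sets disagreed. Egln3, a HIF target and brake, read 370, 509 and 208.

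Of 14 HIF-induced genes outside glycolysis that were measured, 11 were detected, 3 of them higher at passage 14 than at 13 and 7 lower at passage 18 than at 13, with medians of -0.14 and -0.27. Adm, adrenomedullin, read 10080, 9539 and 9111 with its brighter probe set. Its dimmer probe set read 487, 437 and 228, which was 2.14-fold lower at passage 18 than at 13. Ddit4 read 1987, 1957 and 2059. P4ha2 read 347, 170 and 252, and Ero1a 670, 849 and 485. Vegfa and Car9 were not above the floor on any array.

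The genes whose profile lay nearest to that of Hk2 were Smim3, Camkk2, Aspm, Cep57l1 and Gpsm2. Likeness was the Euclidean distance between log2 profiles over the 3 cultures, each centred on its mean, and these distances were between 0.04 and 0.09. Smim3 read 259, 493 and 555 and Camkk2, a calcium-dependent kinase gene, 185, 357 and 370. Aspm, a gene of the mitotic spindle pole, read 218, 428 and 445. With 3 cultures many genes can share a profile, and 11.3% of detected genes ran in the order of Hk2, highest at passage 18, then 14, then 13.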

How the data were processed

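Arrays of 3 imLEC cultures were used, 1 per passage, in 1 group. The deposited table gives 1 linear signal intensity per probe set and array, 45101 probe sets with 64 controls. Per the submitters' processing notes MAS5 was used, without a stated role or version. All 3 columns had like medians and were kept as deposited, with no further scaling. Per the labels' protocols, RNA was extracted in parallel and amplified in a single linear round. Such amplification can favour 3′ ends. The platform annotation gave 1 gene to 34958 probe sets, several to 932 and none here to 9211. Symbols were updated by Entrez identifier to RefSeq of GRCm38.p6, which matched 34754. Probe sets with several genes were left out.

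Intensities were taken to log2 with no offset, and each gene was represented by its brightest probe set. The floor was the 95th percentile, per array, of 41 measured genes restricted to other tissues, of which 1 (Apoa2) was itself above the floor on all arrays. The passage trend used lmFit and eBayes with an intensity trend (limma 3.58.1, R 4.3.3), with calls at an adjusted p under 0.05 (Benjamini-Hochberg), on genes whose mean exceeded the mean floor. The fit was tested on simulated data, where it recovered mean slopes of 0.31, 0.60 and 2.02 for 0.3, 0.6 and 2. It called 0%, 0% and 69.5% of 200 changed genes among 9274. P-values reflect only how these 3 cultures vary, which may be technical. With 3 arrays, precision is limited by their number.

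Named in the text are all member probe sets and, from each other pathway list, the 2 detected genes of highest mean level and the 2 of widest range. Others (Pfkm, Tpi1 and Eno2 in the map, Fgfr1, genes named as not above the floor, and marker genes) were added as examples after their values were seen. The members and lists were chosen with earlier results of these data known. Alternatives were the probe-set rule, the floor, quantile normalization, median centring, an offset of 16, no dim filter, other trend codings and leaving out a culture.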

Additional observations from a re-analysis of the deposited data

How the results depend on the processing

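No paired analysis was possible because there is 1 group of cultures. The median differences between passages kept their direction under the 5 alternatives of probe set, scale and offset. With the median of probe sets, passage 14 minus 13 was 0.16 (against 0.08) and passage 18 minus 13 was -0.29 (against -0.47). Without probe sets named _s_at, _x_at or _a_at, passage 18 minus 13 was -0.30. Of 126 values of single member genes under an alternative 120 moved by less than the gene's SD. That SD is the spread over the 3 passages, so a change of sign can fall within it. For Hk1, passage 14 minus 13 went from 0.01 to -0.12 with the median of probe sets. Some values could not move, because the alternative used the same single probe set. Under the median of probe sets 3 members, and under median centring 2, were lower at passage 14 than at 13, against 1. With 16 added before the log 0 members passed 2-fold at passage 18 over 13, against 1 (Hk2). Without probe sets named _s_at, _x_at or _a_at, 6 members kept a probe set, 5 of them were detected, and 4 were lower at passage 18 than at 14. There Pfkl rested on a probe set below the floor. With 1 culture left out, the median slope ranged from -0.125 to 0.0752 (the highest without passage 18), the mean log2 level of the members from 9.87 to 10.06, and detection stayed at 9. With the floor at the 99th percentile Pfkfb3 was not detected (8 of 9), and at the 90th 9 were. The trend with passage number called 0 members under each alternative of probe set, scale, offset and filter. At an unadjusted p under 0.05 by limma at most 1 member passed, as in the main fit. Passage 18 was also set against the mean of passages 13 and 14. That contrast rests on 1 culture at passage 18, and the members' median difference was -0.49. The counts of lower members were added after seeing the data. Signal over background limits Pfkfb3 most.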
